A study of Mus musculus with 24 samples.

Results

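The GABA-A receptor subunit genes Gabra2, Gabra3, Gabra4, Gabra5, Gabrb1, Gabrb2 and Gabrd were followed in the frontal cortex of 3 WT and 3 GFAP-IL6 mice. Their rows were taken by gene symbol, and they made up 7 of the 33000 genes in the count table. All mice were C57BL/6 and 3 months old. The GFAP-IL6 mice were homozygous for a transgene in which the astrocyte promoter of Gfap drives the cytokine Il6, and the WT mice were wild-type. Total RNA of each mouse went into 4 libraries of 3'Pool-seq, a method that counts the 3' ends of polyadenylated transcripts, made from 2 ng or 1 ng of amplified cDNA at the tagmentation step and in a set named A or B, which gave 24 libraries. What A and B stand for is not given in the labels.

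GABA-A receptors are chloride channels built from a ring of subunits, usually alpha and beta subunits with a gamma or a delta subunit, and they carry most of the fast inhibition in the cortex. The alpha subunits Gabra2, Gabra3, Gabra4 and Gabra5 help to form the GABA site and to set where the receptor is placed, and receptors with Gabra2, Gabra3 or Gabra5, unlike those with Gabra4, respond to classical benzodiazepines. The beta subunits Gabrb1 and Gabrb2 take part in GABA binding and in assembly. Gabrd encodes the delta subunit of extrasynaptic receptors, where it often pairs with Gabra4 and carries a tonic current that is sensitive to neurosteroids.

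On mm10, 3 of the genes form a cluster on chromosome 5 between positions 70957597 and 72149037. Gabra2 lies on the minus strand at 70957597-71095849, and Gabra4 lies on the same strand at 71569749-71658308, so the gap between them is 473899 nt. Gabrb1 lies on the plus strand at 71658113-72149037, and the span of the gene overlaps the 5' end of Gabra4 by 196 nt. Of these, 46 nt are exonic in both genes and none is in a last exon, where 3' end counts are expected to fall. Gabra5 is at 57407672-57510059 on chromosome 7, Gabrb2 at 42419757-42629028 on chromosome 11, Gabrd at 155384980-155398112 on chromosome 4 and Gabra3 at 72432681-72656848 on chromosome X. In Gabra5, 148 nt of the last exon are shared with the antisense gene Gm9962, and since the strand setting of the counting is not given in the sources used here, reads from the 2 genes cannot be told apart there.

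Gabra2 and Gabra4 are the genes of the 7 whose WT and GFAP-IL6 mice did not overlap, so the bases upstream of their starts are shown. Neither gene passed edgeR's test over all genes at an adjusted p under 0.05. Of all genes tested, 8.43% lay higher in every GFAP-IL6 mouse than in every WT mouse, and 5.93% lay lower. The bases shown are the RefSeq windows on GRCm38.p6, written 5' to 3' on the minus strand with each CG dinucleotide in capitals, and without bases annotated as exon.
Gabra2 (chr5:71095850-71096099): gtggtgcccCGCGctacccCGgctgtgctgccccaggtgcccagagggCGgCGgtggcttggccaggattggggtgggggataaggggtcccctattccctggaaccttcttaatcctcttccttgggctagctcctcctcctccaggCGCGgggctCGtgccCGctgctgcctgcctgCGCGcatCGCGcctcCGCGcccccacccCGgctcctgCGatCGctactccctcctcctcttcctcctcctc
Gabra4 (chr5:71658364-71658558): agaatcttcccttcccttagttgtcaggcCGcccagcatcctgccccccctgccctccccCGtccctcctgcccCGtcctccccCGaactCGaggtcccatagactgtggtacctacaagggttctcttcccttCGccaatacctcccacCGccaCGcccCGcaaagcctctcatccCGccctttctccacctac
The 250 bases of Gabra2 held 18 CG dinucleotides and were 70.0% G or C. For Gabra4, 55 bases next to the start were left out because they are exonic in Gabrb1, and the other 195 bases held 10 CG dinucleotides and were 63.6% G or C. The full window of 250 bases of Gabra4 held 12 CG dinucleotides and was 61.2% G or C. The median over 32851 windows of 250 bases was 6 CG dinucleotides and 52.4% G or C. A window of Gabrb1 also held 18 CG dinucleotides and was 64.4% G or C, while those of Gabra3 held 0. Neither full window held the STAT core TTCNNNGAA, the cAMP response element TGACGTCA or the TATA box TATAAA on either strand, which 7.02%, 1.55% and 12.4% of all windows held. The available windows of the other subunit genes held no STAT core or cAMP response element either. A TATA box lay in windows of Gabra3 and Gabrb2. These matches describe the letters of the windows and not binding.

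Reads counted on genes ranged from 1524165 to 12256374 per library and from 7852743 to 37582644 per mouse after the 4 libraries were summed. WT mouse 3 was the shallowest and GFAP-IL6 mouse 3 the deepest. Gfap, the transcript of the astrocyte intermediate filament, was 19.97 ± 3.78 CPM (the usual depth-scaled counts, here scaled by TMM; SD, n = 3) in WT and 110 ± 33.4 CPM in GFAP-IL6 mice, and Il6 was 0.142 ± 0.132 and 2.99 ± 1.33 CPM, so both transcripts matched the labels. Of the markers of neurons 10 of 10 were detected. Transcripts of the choroid plexus and striatum differed between single mice, since Ttr reached 4038 CPM in WT mouse 3 against 74.6 to 743 CPM in the other mice and Penk reached 167 CPM in WT mouse 2 against 67.2 to 99.1 CPM. In this bulk tissue, fewer cells of a type and less RNA per cell cannot be told apart.

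All of the 7 subunit genes were detected in every library and passed the filter on low counts. Gabrb1 had the highest level, with a mean of 140 CPM over the 6 mice, followed by Gabrd at 110 CPM, Gabra4 at 84.1 CPM, Gabra5 at 57.7 CPM, Gabra2 at 57.2 CPM, Gabra3 at 19.4 CPM and Gabrb2 at 7.81 CPM. Neighbours in this order did not overlap over the 6 mice except Gabra5, which ranged from 48.2 to 68.4 CPM, and Gabra2, which ranged from 46.9 to 67.9 CPM. Counts of 3' ends need not scale with transcript length. Divided by the deposited gene length, the order became Gabrd at 57.2 CPM per kb, Gabra5 at 21.8, Gabra4 at 20.1, Gabrb1 at 10.2, Gabra2 at 9.78, Gabra3 at 5.01 and Gabrb2 at 1.90 CPM per kb. Gabrb2 rested on 6 to 79 counts per library, while Gabrb1 rested on 195 to 1760.

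**Figure D1:**
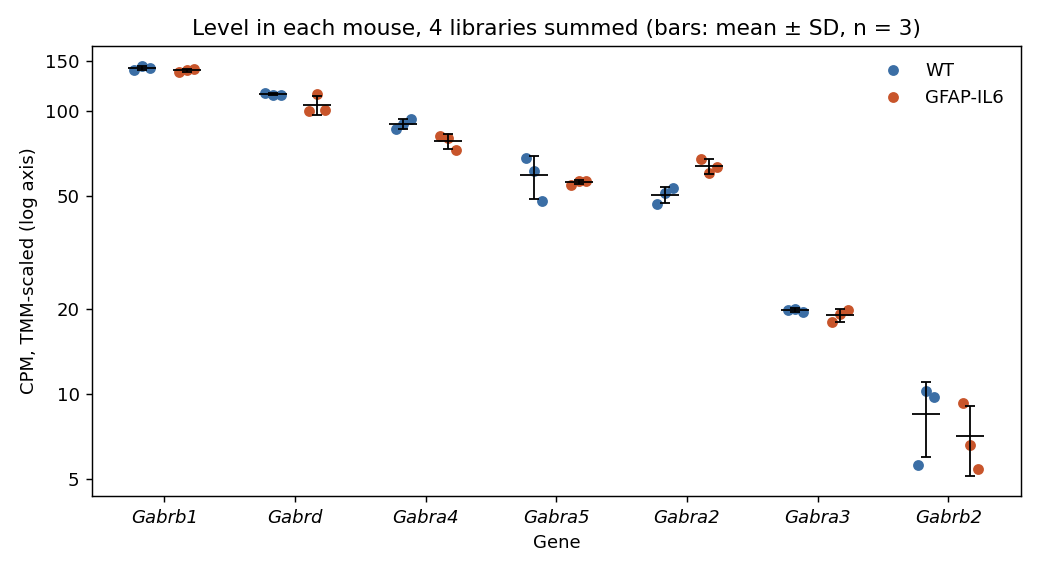
Level of the 7 subunit genes in each mouse after the 4 libraries were summed, in TMM-scaled CPM on a log axis, with WT and GFAP-IL6 mice side by side and bars for the mean ± SD of 3 mice. Gabra2 was 50.6 CPM in WT and 63.8 CPM in GFAP-IL6 mice and Gabra4 was 89.9 and 78.4 CPM, each without overlap, while the groups of the other 5 genes overlapped.

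The first comparison asked whether the subunit genes differed between GFAP-IL6 and WT mice, with the 4 libraries of each mouse summed. Gabra2 was higher and Gabra4 was lower in every GFAP-IL6 mouse than in every WT mouse, but neither passed the test over all genes. None of the 7 genes was called at an adjusted p under 0.05 by edgeR's quasi-likelihood test, where 1.8% of the 14621 genes tested were called, and none by DESeq2. At an unadjusted p under 0.05 there were 2 of the 7, Gabra2 and Gabra4, beside 8.75% of all genes tested. With an absolute log2 fold change above 1 as well, 1.23% of all genes tested were called. The median log2 fold change of the 7 genes was -0.09, against -0.01 over all genes tested, with 1 of the 7 above 0 and 6 below. Of all genes tested, 48.1% were above 0.

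Gabra2, an alpha subunit of synaptic receptors, was 46.9, 51.5 and 53.4 CPM in WT mice 1 to 3 and 67.9, 60.4 and 63.2 CPM in GFAP-IL6 mice 1 to 3. Every GFAP-IL6 mouse lay above every WT mouse, as it did for 8.43% of all genes tested. The log2 fold change was 0.34 ± 0.09 (SE), with a 95% interval from 0.14 to 0.53 and an edgeR adjusted p of 0.109. The adjusted p ranged from 0.0045 to 0.389 over 13 alternatives, and the lowest, from limma voom on the 24 libraries, was the only one past the threshold. The exact permutation test over mice, two-sided, gave p = 0.1, the smallest that 3 mice against 3 allow.

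Gabra4, an alpha subunit of extrasynaptic receptors, was 86.1, 90.2 and 93.4 CPM in WT mice and 81.8, 80.4 and 72.9 CPM in GFAP-IL6 mice. Every GFAP-IL6 mouse lay below every WT mouse, as it did for 5.93% of all genes tested. The log2 fold change was -0.20 ± 0.09 (SE), with a 95% interval from -0.38 to -0.01 and an edgeR adjusted p of 0.508. Over 13 alternatives the adjusted p ranged from 0.057 to 0.999, and none passed the threshold. The exact permutation test, two-sided, again gave p = 0.1, the smallest possible.

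Gabrd, the delta subunit, was 115, 114 and 114 CPM in WT mice and 100.2, 115 and 101 CPM in GFAP-IL6 mice, so GFAP-IL6 mouse 2 lay within the WT range. Its log2 fold change was -0.12, with a 95% interval from -0.30 to 0.06. Gabra3, an alpha subunit, was 19.8, 20.003 and 19.4 CPM in WT and 17.9, 19.2 and 19.9 CPM in GFAP-IL6 mice, and its log2 fold change was -0.05 with an interval from -0.29 to 0.19. These groups overlapped.

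Gabra5, an alpha subunit best known from extrasynaptic receptors, was 68.4, 61.2 and 48.2 CPM in WT mice and 55.0, 56.7 and 56.8 CPM in GFAP-IL6 mice. All 3 GFAP-IL6 mice lay inside the WT range, and the log2 fold change was -0.09 with an interval from -0.33 to 0.15. Its sign turned when WT mouse 1 was left out, to 0.03.

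Gabrb1, a beta subunit, was 139, 144 and 142 CPM in WT mice and 137, 140.2 and 141 CPM in GFAP-IL6 mice. Its log2 fold change of -0.02 had the narrowest interval of the 7 genes, from -0.19 to 0.14. Gabrb2, the other beta subunit, was 5.62, 10.2 and 9.71 CPM in WT mice and 9.28, 6.62 and 5.42 CPM in GFAP-IL6 mice. Its log2 fold change was -0.29 with the widest interval, from -0.81 to 0.22, on 74 to 209 counts per mouse, and this interval included differences of the size seen for Gabra4. Adjusted p-values of the 5 genes other than Gabra2 and Gabra4 ran from 0.768 to 0.9748.

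Within the 7 genes alone, Gabra2 took 9.74%, 10.5% and 11.1% of their counts in WT mice and 14.5%, 12.6% and 13.8% in GFAP-IL6 mice. Gabra4 took 17.9%, 18.4% and 19.5% in WT and 17.4%, 16.8% and 15.9% in GFAP-IL6 mice. The shares of these 2 genes did not overlap between the groups, while those of the other 5 did. The exact permutation test, two-sided, gave p = 0.1 for each, the smallest possible. By CPM, every GFAP-IL6 mouse lay above every WT mouse for 8.43% of all genes tested, and below for 5.93%. Shares within a mouse add up to the whole, so a higher share of Gabra2 lowers the others. The result for the share of Gabra4 is therefore not separate from that for Gabra2. The largest share was that of Gabrb1, with a mean of 29.3% in WT and 29.7% in GFAP-IL6 mice. The 7 genes together summed to 480.1 to 491 CPM in WT and 459 to 478 CPM in GFAP-IL6 mice.

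Markers of other cells moved with genotype. Of 8 microglia markers 7 rose, among them Aif1 by 1.22 and C1qb by 1.46 on the log2 scale (edgeR, adjusted p = 2.57e-06 and 1.41e-06), and P2ry12 did not pass with -0.02. The summed microglia level was 336 to 366 CPM in WT and 616 to 821 CPM in GFAP-IL6 mice. None of the 10 neuron markers, 6 markers of excitatory neurons and 6 of interneurons was called by edgeR or DESeq2, and none had an unadjusted p under 0.05 in either, while limma voom called 2, 0 and 1 of them. Their summed levels were 8288 to 8979 CPM in WT and 7868 to 8607 CPM in GFAP-IL6 mice for neurons, 628 to 742 and 644 to 735 CPM for excitatory neurons, and 1249 to 1425 and 1197 to 1282 CPM for interneurons. The 7 astrocyte markers, of which only Gfap was called by edgeR, summed to 1566 to 1695 and 1780 to 1961 CPM, and Flt1 was the only 1 of 4 endothelial markers called by edgeR, at 0.70 on the log2 scale (adjusted p = 0.00637), with all 4 above 0. DESeq2 called 2 of the astrocyte and 1 of the endothelial markers, and limma voom called 4 of 7 and 3 of 4. The 7 striatal markers summed to 238 to 443 CPM in WT and 226 to 293 CPM in GFAP-IL6 mice, with Drd2 at 0 in every library, and edgeR and DESeq2 called none and limma voom 1 of the 5 tested. The part of these cells in the values of Gabra2 and Gabra4 was not tested.

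The 4 sets repeat the genotype comparison on the same 6 mice, so they are technical repeats and not independent of each other. In no set was any of the 7 genes called by edgeR or DESeq2, where edgeR called 1.03% of genes tested with 2 ng in set A, 1.08% with 2 ng in set B, 1.1% with 1 ng in set A and 1.08% with 1 ng in set B. At an unadjusted p under 0.05 there were 2, 0, 1 and 1 of the 7 in these sets, beside 7.59%, 6.77%, 7.34% and 6.98% of all genes tested.

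Gabra2 was higher in all 3 GFAP-IL6 mice than in all 3 WT mice in each of the 4 sets, as were 6.82% of genes tested with 2 ng in set A, 6.61% with 2 ng in set B, 6.52% with 1 ng in set A and 6.73% with 1 ng in set B. With 2 ng in set A it was 49.6, 49.5 and 59.6 CPM in WT and 83.8, 65.1 and 67.3 CPM in GFAP-IL6 mice, and the log2 fold change was 0.45 ± 0.14 (SE; edgeR adjusted p = 0.156). With 1 ng in set A it was 45.5, 57.7 and 51.1 CPM against 72.6, 60.0 and 71.3 CPM, a log2 fold change of 0.41. The groups came closest with 2 ng in set B, where the values were 42.2, 49.3 and 49.1 CPM against 59.1, 50.7 and 49.96 CPM and the interval of the log2 fold change, from -0.10 to 0.46, included 0. With 1 ng in set B Gabra2 was 50.3, 50.3 and 54.3 CPM against 60.1, 64.5 and 62.4 CPM, a log2 fold change of 0.29.

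Gabra4 did not overlap in the sets made with 2 ng and overlapped in those made with 1 ng. Every GFAP-IL6 mouse lay below every WT mouse for 5.95% and 5.68% of genes tested with 2 ng in sets A and B, and for 6.34% and 6.27% with 1 ng. With 2 ng in set A it was 133, 134 and 132 CPM in WT and 102, 117 and 107 CPM in GFAP-IL6 mice, a log2 fold change of -0.28 with an interval from -0.50 to -0.07. With 2 ng in set B it was 70.6, 68.7 and 82.7 CPM against 61.7, 65.1 and 57.5 CPM, a log2 fold change of -0.25. With 1 ng the log2 fold change was -0.12 in set A, where GFAP-IL6 mouse 1 was the highest of the 6 mice at 96.5 CPM, and -0.18 in set B.

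Gabrd showed no common pattern over the sets. In both libraries of set B every GFAP-IL6 mouse lay below every WT mouse, at 93.0 to 120.1 CPM against 124 to 128 CPM with 2 ng and at 95.3 to 112 CPM against 116 to 121 CPM with 1 ng, where 5.68% and 6.27% of genes tested did so. In set A the groups overlapped, and the log2 fold changes were -0.02 with 2 ng and 0.01 with 1 ng. The groups of the other 4 genes, Gabra3, Gabra5, Gabrb1 and Gabrb2, overlapped in each of the 4 sets.

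**Figure D2:**
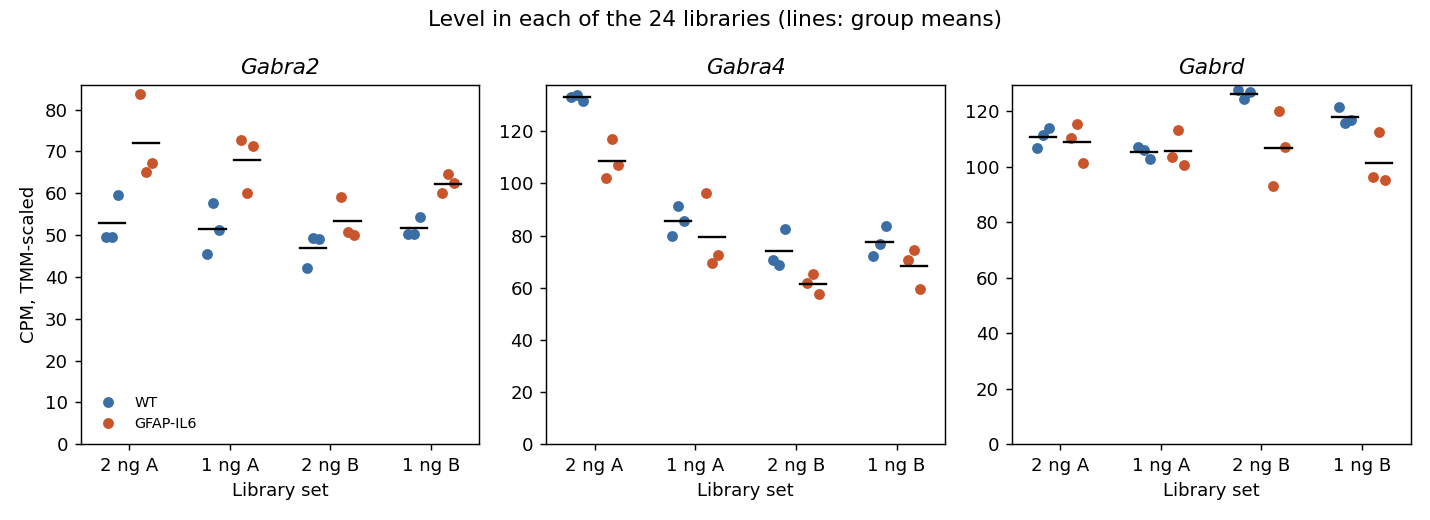
Level of Gabra2, Gabra4 and Gabrd in each of the 24 libraries, in TMM-scaled CPM from 0, by library set and genotype, with a line for the mean of 3 mice. Gabra2 was higher in the GFAP-IL6 mice of each set, and Gabra4 of WT mice was near 133 CPM with 2 ng in set A and between 68.7 and 91.5 CPM in the other sets.

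**Figure D3:**
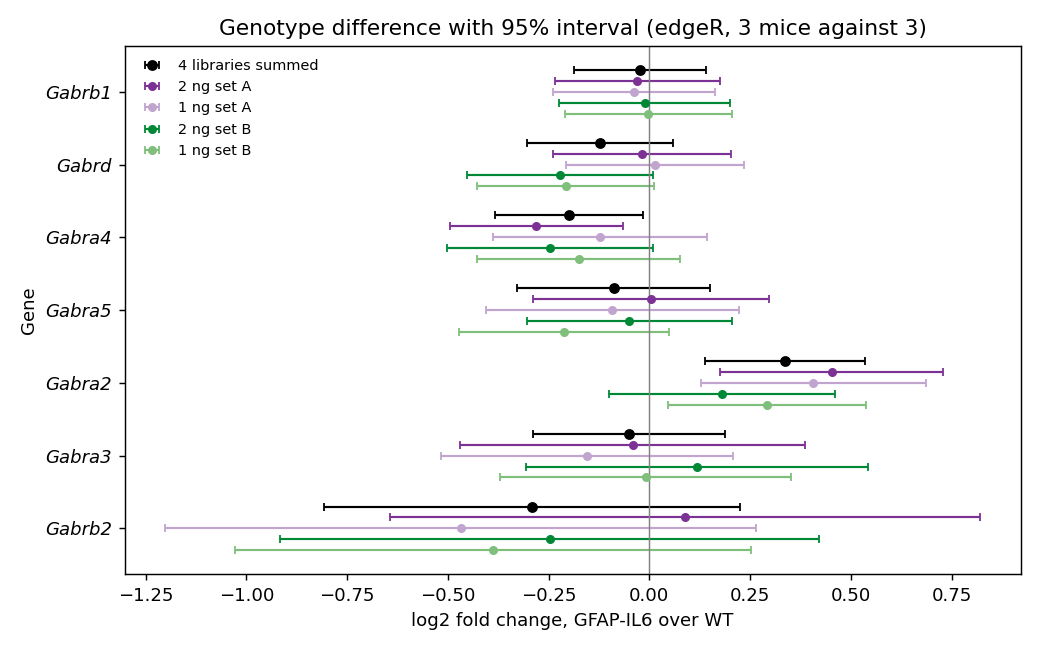
The log2 fold change of GFAP-IL6 over WT mice for the 7 genes, with its 95% interval, for the summed libraries and for each set. The interval of Gabra2 lay above 0 in the summed libraries and in 3 of the 4 sets, and that of Gabrb2 was the widest.

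The second comparison used the libraries of the same mouse to ask how the subunit genes differed with the amount of cDNA at tagmentation. Mouse and set were in the model. The p-values measure the spread between libraries of the same RNA, not between animals. In the paper's protocol, samples are pooled after reverse transcription, and the pool is then amplified and tagmented. Which of these libraries shared a pool is not given in the sources used here. If those of the same amount and set did, differences between amounts or sets cannot be told apart from differences between pools. Of the 7 genes 4 were called by edgeR, where 26.1% of the 13249 genes tested were called. Gabra4 was higher with 2 ng, by 0.25 on the log2 scale (edgeR adjusted p = 0.00241), and Gabra3, Gabrb1 and Gabrb2 were lower, with log2 fold changes of -0.49, -0.10 and -0.36 (edgeR adjusted p = 7.45e-06, 0.031 and 0.037). DESeq2 called 3 of the 7, without Gabra4, beside 3409 of the 13249 genes tested.

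Gabra3 had the largest of these differences. Its 12 libraries with 2 ng ran from 13.2 to 19.0 CPM with a median of 16.1 CPM, and the 12 with 1 ng ran from 16.7 to 29.0 CPM with a median of 21.5 CPM. It was lower with 2 ng in 11 of the 12 pairs of libraries. Gabrb1 was lower with 2 ng in 10 of 12 pairs, and its medians were 136 and 145 CPM. Gabrb2 was lower in 10 of 12 pairs too, with medians of 6.29 and 8.13 CPM.

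Gabra4 behaved differently in the 2 sets. In set A, where 29.8% of genes tested were called, it was higher with 2 ng in 6 of 6 mice, with means over the 6 mice of 121 CPM with 2 ng and 82.7 CPM with 1 ng, and its log2 fold change was 0.57 with an interval from 0.46 to 0.68. In set B, where 19.8% were called, it was lower with 2 ng in 6 of 6 mice, with means of 67.7 and 72.9 CPM, and its log2 fold change of -0.10 was not called (edgeR adjusted p = 0.237). The test of the difference between the sets gave -0.68 ± 0.09 (SE, log2 scale; edgeR adjusted p = 3.43e-11), and Gabra4 was the only 1 of the 7 genes called there, beside 11.1% of all genes tested. In set A alone Gabra3 and Gabrb1 were called too, with log2 fold changes of -0.67 and -0.17, and in set B alone Gabra2, Gabra3 and Gabrb2 were called, with -0.21, -0.31 and -0.44.

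Between set B and set A, with mouse and amount in the model, 4 of the 7 genes were called by edgeR, where 26.2% of all genes tested were called. Gabra4 was lower in set B, with a log2 fold change of -0.51, and so were Gabra2 with -0.18 and Gabrb1 with -0.13 (edgeR adjusted p = 1.31e-08, 0.0126 and 0.00427). Gabrb2 was higher by 0.37 (edgeR adjusted p = 0.0327). With 2 ng, Gabra4 was lower in set B in 6 of 6 mice, by a mean of -0.83 ± 0.11 (SD) on the scale of log2(CPM + 1), and with 1 ng in 5 of 6 mice, by -0.18 ± 0.19. Gabra5 and Gabrd were called neither for the amount nor for the set, and their intervals lay between -0.11 and 0.15 on the log2 scale in both contrasts.

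**Figure D4:**
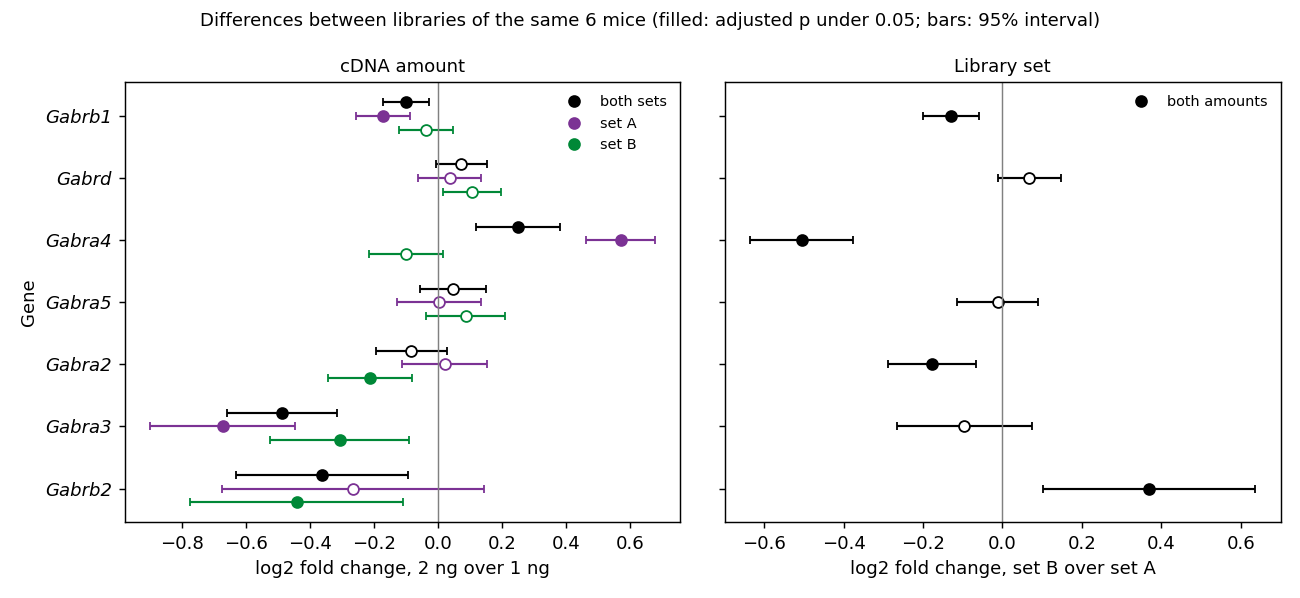
The log2 fold change between libraries of the same 6 mice, with its 95% interval, for 2 ng over 1 ng on the left and for set B over set A on the right, with filled points for an adjusted p under 0.05. Gabra4 stood at 0.57 in set A and -0.10 in set B on the left, and at -0.51 on the right.

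Whether the genotype difference depended on the amount of cDNA was tested by the interaction of both, and its p-values measure the spread between libraries. The model left out the interaction of amount and set, for which 11.1% of genes tested were called, so that difference counted as spread. For Gabra4 the SE of the interaction of genotype and amount was 0.13, and no model that held both interactions was fitted. A lack of calls here does not show that there is no dependence. None of the 7 genes was called by edgeR or DESeq2 and none had an unadjusted p under 0.05, and among all 13249 genes tested 0% were called by edgeR, with 268 at an unadjusted p under 0.05. The interaction was -0.02 for Gabra2, with an interval from -0.25 to 0.21 on the log2 scale, and -0.10 for Gabra4, with an interval from -0.36 to 0.17. The log2 fold change of Gabra4 between sets, -0.51, was larger in size than that between genotypes, -0.20. Each set held all 6 mice, so amount and set were balanced over genotype.

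The other 12 rows of GABA-A and rho subunits are given as a group. Of these, 6 passed the filter on low counts and 2 had no count in any library. None of the 6 was called between genotypes by edgeR or DESeq2, and 2 had an unadjusted p under 0.05, beside 8.75% of all genes tested in edgeR. limma voom called 2 of the 5 it tested, beside 4.62% of all genes it tested. Their log2 fold changes ran from -0.25 to 0.38 with a median of -0.09, with 1 above 0 and 5 below, beside 48.1% of all genes tested above 0. Their summed level was 851 to 927 CPM in WT and 746 to 828 CPM in GFAP-IL6 mice.

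The wider GABA pathway was described from lists of genes. None of the 9 genes that make, load, take up or break down GABA was called by edgeR or DESeq2, nor any of the 8 that limma voom tested, and none had an unadjusted p under 0.05 in edgeR, with a median log2 fold change of -0.05. Abat, the GABA transaminase, stood at -0.15, Gad1, a GABA-synthesizing enzyme, at -0.11, and Slc32a1, the vesicular GABA transporter, at -0.15. None of the 19 genes for anchoring and trafficking of the receptor was called by edgeR, DESeq2 or limma voom, with a median of -0.01. Of these, 2 had an unadjusted p under 0.05, namely Gphn, the scaffold gephyrin of inhibitory synapses, at -0.25 and Iqsec3, a gephyrin-binding exchange factor, at 0.21. Rdx, radixin, which anchors receptors with Gabra5, stood at 0.17.

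Of the 9 genes for chloride transport none was called by edgeR, DESeq2 or limma voom, with a median of -0.05. Slc12a7, a potassium-chloride cotransporter, had an unadjusted p under 0.05 and stood at 0.89 on a level of 1.05 ± 0.46 CPM in WT and 2.09 ± 0.22 CPM in GFAP-IL6 mice (SD, n = 3). Stk39, a kinase that acts on these cotransporters, stood at -0.15, and Slc12a5, the neuronal chloride extruder, at -0.06. None of the 5 genes of the GABA-B receptor and of the 4 glycine receptor genes tested was called by edgeR or DESeq2, nor any of the 4 and 2 that limma voom tested, and none had an unadjusted p under 0.05 in edgeR. The 4 GABA-B genes with the smallest p were Kctd8 at -0.29, Kctd16 at -0.51, Gabbr1 at -0.09 and Kctd12 at 0.10, and the glycine receptor genes ran from -0.19 for Glra1 to 0.27 for Glra3, with Glrb at -0.11 and Glra2 at -0.08.

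Of 5 neurosteroid genes tested, 1 rose between genotypes. Tspo, the mitochondrial translocator protein that is also a widely used marker of activated microglia, was 19.7, 23.9 and 20.3 CPM in WT mice and 49.7, 53.5 and 63.4 CPM in GFAP-IL6 mice, a log2 fold change of 1.38 ± 0.12 (SE; edgeR adjusted p = 5.23e-06). Its groups did not overlap. The microglia markers rose in the same mice, and their part in Tspo was not tested. The other 4 genes, Srd5a1, Cyp11a1, Akr1c14 and Cyp46a1, were not called, with log2 fold changes from -0.08 to 0.22.

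The genes whose pattern over the 24 libraries was most like that of each subunit, after the mean of each set was subtracted, were ranked among 8983 genes by Pearson's r of log2(CPM + 1). The 24 points share 6 mice, 4 libraries each, so r describes these libraries. Genotype means were not subtracted, so r also holds differences between the genotypes. For Gabra2 these were Serp1 (r = 0.876) and Slc38a5 (r = 0.839), for Gabra4 Pak7 (r = 0.841) and AW549877 (r = 0.829), and for Gabra5 Parm1 (r = 0.931) and Mkrn1 (r = 0.854). For Gabra3 they were Tnk2 (r = 0.760) and Wnt7b (r = 0.735), for Gabrb1 Osbp (r = 0.700) and Lrrn3 (r = 0.691), and for Gabrd Atp5a1 (r = 0.806) and Gad1 (r = 0.795). None of the most alike genes was another of the 7 subunits. Gabrb2 lay below the minimum of 10 CPM and was not ranked.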

How the data were processed

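The values were raw counts. The authors trimmed polyA stretches, aligned reads with STAR 2.4 to mm10 and deposited counts of uniquely aligned reads per gene of GENCODE vM6 from featureCounts, without normalization. The labels' processing field names another species' build, but all identifiers are mouse. All 24 libraries were assigned by their labels. Mice were the replicates. No label names separate litters or cages, so p-values measure the spread between these mice.

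Counts of the 4 libraries of each mouse were summed, and the genotype contrast was fitted in edgeR 4.0.16 under R 4.3.3 (quasi-likelihood test, TMM, filterByExpr, Benjamini-Hochberg over all genes tested), likewise within each set. Amount and set were tested with mouse as a block. CPM were TMM-scaled, and 1 was added before taking log2. Alternatives were DESeq2 1.42.0, its size factors, other filters, thinning to the smallest sum, leaving out mice, same-numbered mice as a block, and limma 3.58.1 voom. The interaction of amount and set was added after seeing the data. Single values were compared by exact permutation over 20 splits. No 2 libraries were identical. Among the tests, those of edgeR for genotype in the summed libraries and for cDNA amount were checked on simulated counts.

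The 7 genes, the lists and their tests were chosen with earlier results of these data known. The genes named were all 7 subunits, the called genes of each list or up to 4 with the smallest p where none was called, and the 2 genes most like each subunit. The other subunit rows are given as a group and not named, against that rule, and of the cell type lists only values that bear on the subunits are given. Some single genes of the lists are not reported here. Positions came from GENCODE vM21 on mm10 and promoters from RefSeq on GRCm38.p6, with windows for 6 of the 7 genes.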

Additional observations from a re-analysis of the deposited data

Results flagged for a closer look

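The log2 fold change of Gabra4 between 2 ng and 1 ng of cDNA was 0.57 in set A and -0.10 in set B, and set B minus set A was -0.68 (edgeR adjusted p = 3.43e-11), a difference between the sets that was tested by the interaction of amount and set.

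Single mice stood apart from the other 5 in 3 of 28 groups of within-mouse differences, where chance gives about 1 in 20. GFAP-IL6 mouse 1 had a difference of 0.078 between 2 ng and 1 ng for Gabra4 in set A, on the scale of log2(CPM + 1), against 0.54 to 0.74 in the other mice. WT mouse 3, the shallowest, had a difference of -0.76 between sets B and A for Gabra3 with 1 ng, against -0.27 to -0.08, and of 0.43 for Gabra5 with 2 ng, against -0.10 to 0.03.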

How the results depend on the processing

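No subunit was called between genotypes in the summed libraries or in any set under any alternative but limma voom on the 24 libraries with mouse as a random block, which called 1 of the 7 (Gabra2, 0.34, adjusted p = 0.0045) and 595 genes in all. The signs of Gabra2 and Gabra4 held under every alternative in the summed libraries and in each set. Without GFAP-IL6 mouse 3 the adjusted p of Gabra4 in the summed libraries was 0.999, and its lowest over the alternatives was 0.057. Gabra5 ran from -0.20 to 0.026 in the summed libraries when each mouse was left out, and turned sign without WT mouse 1. No filter on low counts gave 462 called genes in the summed libraries and 199, 200, 214 and 228 with 2 ng in sets A and B and 1 ng in sets A and B; at least 10 counts everywhere gave 79 and 72 with 2 ng in sets A and B. Leaving out each mouse gave 146 to 321 called genes in the summed libraries, 57 to 141 with 2 ng in set A, 59 to 160 with 2 ng in set B, 62 to 169 with 1 ng in set A and 54 to 162 with 1 ng in set B. Lowest in the summed libraries was the count without GFAP-IL6 mouse 3. This mouse was the deepest and also had the highest Gfap and Il6, at 146 and 4.23 CPM, and the part of each was not tested. For cDNA amount without the mouse block (no pairing by mouse), 2 of 7 subunits were called, Gabrb1 and Gabrb2 not, beside 2336 of the 12758 genes tested. For the set, 2160 genes were called without the mouse block. The same-numbered mice of the 2 genotypes did not deviate together (correlations from -0.05 to -0.03). Their number as a replicate block gave 83 called genes in place of 132 with 2 ng in set B, called no subunit, and left the count within 1.5 times of its value in the other genotype comparisons. Gabrb2 rested on the fewest counts of the 7 genes, 6 to 79 per library.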
